A study of Mus musculus with 12 samples.

Results

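The genes described here are the non-collagen core of the basement membrane: the laminin chain genes Lama1, Lama2, Lama4, Lama5, Lamb1, Lamb2, Lamc1 and Lamc3, the nidogen gene Nid1 and the perlecan gene Hspg2. They were taken by symbol, and all 10 were present among the 15672 genes of the table. All 10 also passed the filter on low values, as did 14147 genes in all. RNA came from mouse medulloblastoma, a tumour of the cerebellum, collected at end point and sequenced in bulk. SG tumours (fSMO-M2;hGFAPcre) carry an activated Smoothened allele, which switches on Hedgehog signalling, under Cre driven by the human GFAP promoter. YSGr tumours (fYap1;fSMO-M2;hGFAPcre) carry the same allele and Cre together with a floxed allele of Yap1, the coactivator held back by the Hippo pathway, and their label says rescued without saying of what. There were 3 libraries each of SG males (1 to 3), SG females (4 to 6), YSGr males (7 to 9) and YSGr females (10 to 12), and the labels give no ages. The human GFAP promoter is known to act in neural stem cells and their descendants, whereas tumour tissue also holds vessel, meningeal and immune cells. No label says that libraries came from separate animals, so the p-values reflect only how far these samples scatter, and that scatter may be technical.

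A basement membrane is a thin sheet of matrix that coats blood vessels and the surface of the brain beneath the meninges. Laminins are trimers of 1 alpha, 1 beta and 1 gamma chain that bind integrins and dystroglycan on cells and assemble into a network. Nidogen bridges that network to the one formed by type IV collagen, and perlecan, a heparan sulfate proteoglycan, binds both. In the cerebellum the pial basement membrane lies against the layer in which granule neuron progenitors divide.

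Estimated reads per library ran from 8854768 to 9478653, and 3 reads in 1 library, the smallest amount taken as detectable, corresponded to 0.301 to 0.333 CPM. All 11 granule neuron progenitor markers examined were measurable, which does not by itself establish tumour identity. Their summed level was 4423 to 5495 CPM in SG and 2929 to 4817 CPM in YSGr. Yap1 itself averaged 4.48 ± 0.18 log2 CPM in SG and 0.83 ± 0.77 in YSGr (± SD, n = 6 per genotype). SG male 2 stood apart, with the lowest SG value of each of the 10 genes and the lowest library weight in limma, 0.10. YSGr male 8, weight 0.28, was the lowest YSGr library for 4 of the genes and the highest for 2. YSGr female 11 (weight 0.27, the highest YSGr library for 2 genes) and YSGr female 12 (0.42) also had low weights. Values without SG male 2 and YSGr male 8 are given where they move a count by more than 1.5 times.

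RefSeq promoter windows (GRCm38.p6, 250 bases before to 50 after the start) were at hand for 6 of the 10 genes, namely Lama2, Lama5, Lamb1, Lamb2, Nid1 and Hspg2. The start is that of RefSeq and differs from the GENCODE gene positions given further on. The Lama2 window, 27616893 to 27617192 on the minus strand, lies inside its GENCODE gene, which runs to 27619758. Windows are shown for the gene with the largest fall (Nid1), the most abundant alpha chain gene (Lama5) and the only gene of the 10 without a call (Lamb1). Each runs 5′ to 3′ on the gene's own strand, and capitals mark the motif matches described after them.
Nid1, chr13:13437352-13437651, plus strand: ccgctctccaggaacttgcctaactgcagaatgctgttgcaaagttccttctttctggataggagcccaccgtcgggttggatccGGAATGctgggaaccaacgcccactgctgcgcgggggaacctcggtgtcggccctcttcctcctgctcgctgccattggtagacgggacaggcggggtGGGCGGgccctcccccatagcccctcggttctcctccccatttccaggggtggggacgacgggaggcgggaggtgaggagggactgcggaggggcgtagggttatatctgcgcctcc
Lama5, chr2:180225810-180226109, minus strand: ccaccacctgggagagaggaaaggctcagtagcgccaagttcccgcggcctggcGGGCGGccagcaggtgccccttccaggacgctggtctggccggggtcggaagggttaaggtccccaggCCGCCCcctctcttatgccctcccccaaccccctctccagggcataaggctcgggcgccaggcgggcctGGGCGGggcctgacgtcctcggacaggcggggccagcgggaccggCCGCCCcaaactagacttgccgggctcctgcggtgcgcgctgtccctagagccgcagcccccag
Lamb1, chr12:31265043-31265342, plus strand: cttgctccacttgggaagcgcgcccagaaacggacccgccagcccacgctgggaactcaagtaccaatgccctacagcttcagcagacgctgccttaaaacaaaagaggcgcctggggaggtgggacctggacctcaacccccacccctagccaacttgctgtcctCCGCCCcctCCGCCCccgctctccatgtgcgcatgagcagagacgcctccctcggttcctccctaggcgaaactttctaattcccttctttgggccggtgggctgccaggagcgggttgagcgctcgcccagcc

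Motifs were searched on both strands as plain letters. GGAATG, the core that the YAP partners of the TEAD family recognise, was found in 1 of the 6 windows, that of Nid1, with its first base at position -165 relative to the RefSeq start. Among all 32851 RefSeq windows 14.7% hold it. The GC box GGGCGG was found in 5 of 6 windows, among them Lama5 with 4 matches, Lamb1 with 2 and Nid1 with 1, against 35.7% of all windows. The Lamb2 window had 0 matches of any of the motifs. The GLI site GACCACCCA (0.25% of all windows) and TATAAA (13.6%) matched in 0 of the 6. A match is a string of letters and says nothing about binding.

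Averaged over the sexes, the basement membrane genes were lower in YSGr tumours. Of the 10, 9 fell, 0 rose and 1, Lamb1, was not called (limma on log2 CPM, Benjamini-Hochberg adjusted p under 0.05 over all 14147 genes). Of all genes tested, 5.27% were called lower and 6.16% higher in this comparison. The median log2 fold change of the 10 was -0.92, with a range of -1.52 to -0.44, beside a median of 0.00 over all genes tested. Without SG male 2 the count was again 9, with a median of -1.04, and without both SG male 2 and YSGr male 8 it was 9, with a median of -1.05. Each value of log2 CPM includes the authors' prior count, so fold changes of the lower genes are understated. In bulk tissue, fewer cells that make a transcript and less transcript per cell cannot be told apart.

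**Figure D1:**
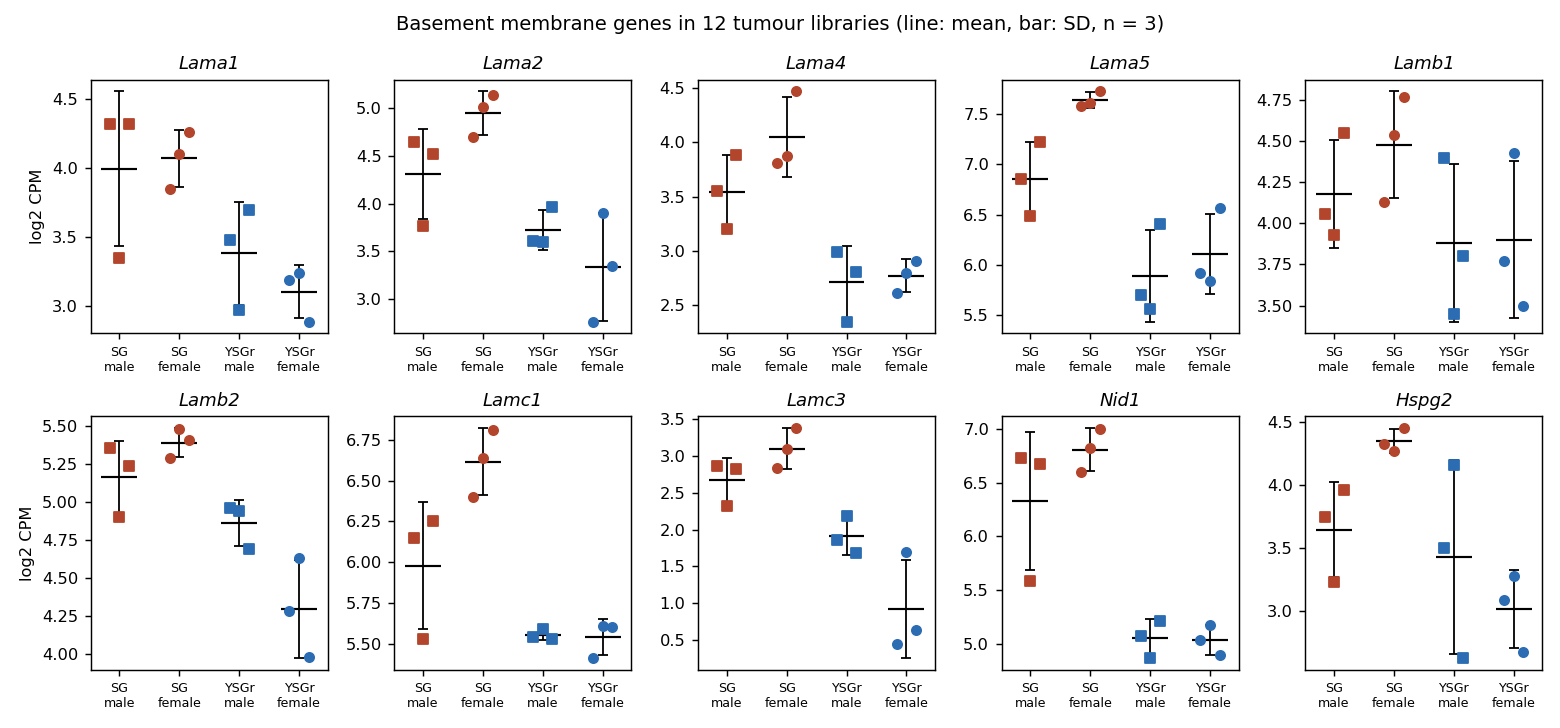
Level of each of the 10 genes (vertical axes, log2 CPM, scaled per panel) in SG and YSGr libraries of each sex, with points for libraries, lines for group means and bars for the SD of 3 libraries. For Lama4, Lamc3 and Nid1 all 6 YSGr points lie under all 6 SG points, and the low SG male point in each panel is SG male 2.

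Nid1 (chromosome 13, 13437551 to 13512269, plus strand), which encodes the nidogen that links laminin to type IV collagen, showed the largest fall of the 10. It measured 6.73, 5.59 and 6.67 log2 CPM in the SG males and 6.60, 6.82 and 7.00 in the SG females. YSGr males measured 5.08, 4.87 and 5.22 and YSGr females 5.04, 5.18 and 4.90. All 6 YSGr libraries lay below all 6 SG libraries, and the YSGr values sat within a much narrower band (SD 0.14 against 0.50, n = 6 each). In estimated reads the ranges were 434 to 1167 per SG library and 268 to 359 per YSGr library. By mean CPM Nid1 was 2.99-fold lower in YSGr, and its log2 fold change was -1.52 (SE 0.18, adjusted p = 0.00024). Leaving out any single library kept the call, with log2 fold changes of -1.70 to -1.42.

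Among the alpha chains, which carry the sites for cell receptors, all 4 genes fell. Lama5 (chromosome 2, 180176373 to 180225859, minus strand), an alpha chain of epithelial and vascular basement membranes, was covered by 806 to 1934 estimated reads in SG and by 443 to 856 in YSGr. Its log2 CPM was 6.86, 6.49 and 7.22 in SG males, 7.58, 7.61 and 7.73 in SG females, 5.70, 5.56 and 6.41 in YSGr males and 5.92, 5.84 and 6.57 in YSGr females. The genotypes overlapped only in that YSGr female 12 exceeded SG male 2. Lama5 was 2.40-fold lower by mean CPM, at a log2 difference of -1.25 (SE 0.18, adjusted p = 0.00099).

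Lama4 (chromosome 10, 38965515 to 39110188, plus strand) encodes the alpha chain typical of endothelial basement membranes. Its SG libraries spanned 3.20 to 4.47 log2 CPM with a median of 3.84, and its YSGr libraries 2.35 to 2.99 with a median of 2.81. The groups did not overlap, and the log2 fold change was -1.05 (SE 0.18, adjusted p = 0.0027). Lama2 (chromosome 10, 26980036 to 27619758, minus strand), the alpha chain of muscle and peripheral nerve that is also present around brain vessels, spanned 3.77 to 5.13 in SG (median 4.67) and 2.77 to 3.96 in YSGr (median 3.61). SG male 2 fell inside the YSGr range, and the other 5 SG libraries lay above it. The log2 fold change of Lama2 was -1.10 (SE 0.20, adjusted p = 0.0048).

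Lama1 (chromosome 17, 67697259 to 67822647, plus strand), the alpha chain of the embryonic and pial basement membrane, spanned 3.35 to 4.32 log2 CPM in SG (median 4.18) and 2.89 to 3.70 in YSGr (median 3.22). Again SG male 2 alone reached into the YSGr range. Its log2 fold change of -0.79 (SE 0.20, adjusted p = 0.021) lost the call without SG male 3 (adjusted p = 0.052), SG female 5 (0.055) or SG female 6 (0.066).

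The gamma chains fell too. Lamc1 (chromosome 1, 153218922 to 153332786, minus strand), the gamma chain of most laminins and the one that binds nidogen, spanned 5.53 to 6.81 log2 CPM in SG and only 5.41 to 5.61 in YSGr. With an SD of 0.08 in YSGr against 0.45 in SG, Lamc1 was the least variable of the 10 genes among YSGr libraries. SG male 2, at 5.53, lay inside the YSGr range, and the log2 fold change was -0.75 (SE 0.13, adjusted p = 0.0028). Lamc3 (chromosome 2, 31887291 to 31946539, plus strand), a gamma chain linked to malformations of the cortex, was the scarcest gene of the set. It had 69, 43 and 65 estimated reads in SG males, 68, 76 and 93 in SG females, 34, 41 and 29 in YSGr males and 11, 29 and 12 in YSGr females. All YSGr counts were below all SG counts. By mean CPM Lamc3 was 2.71-fold lower, at a log2 difference of -1.47 (SE 0.23, adjusted p = 0.0018).

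The beta chain genes had the smallest log2 fold changes of the 10. Lamb2 (chromosome 9, 108479736 to 108490530, plus strand), the beta chain of the neuromuscular junction and the kidney filter, was at 5.28 ± 0.20 log2 CPM in SG and 4.58 ± 0.39 in YSGr (± SD, n = 6 per genotype). It fell by 0.70 on the log2 scale (SE 0.13, adjusted p = 0.0046), and 5 SG libraries lay above every YSGr library. Lamb1 (chromosome 12, 31265234 to 31329644, plus strand), the widely expressed beta chain, measured 4.06, 3.93, 4.55, 4.13, 4.54 and 4.77 in SG libraries 1 to 6. The YSGr libraries 7 to 12 measured 4.40, 3.45, 3.80, 3.77, 4.43 and 3.50. YSGr male 7 and YSGr female 11 were as high as the middle of the SG range, so the groups overlapped widely. The log2 fold change of Lamb1 was -0.44 (SE 0.21, adjusted p = 0.19, 95% interval -0.89 to 0.01).

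Hspg2 (chromosome 4, 137468769 to 137570630, plus strand), which encodes perlecan, had the least stable call. It measured 3.75, 3.23 and 3.96 log2 CPM in SG males, 4.32, 4.27 and 4.45 in SG females, 3.50, 4.16 and 2.63 in YSGr males and 3.09, 3.28 and 2.68 in YSGr females. YSGr male 8 was above every SG male, and the YSGr males spanned the widest range of the 4 groups for this gene. Its log2 fold change was -0.77 (SE 0.23, adjusted p = 0.048). The call held in only 2 of the 12 leave-outs, those of SG male 2 and YSGr male 8, and adjusted p ranged from 0.051 to 0.11 in the other 10.

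Over all 10 genes, Lama4, Lamc3 and Nid1 were the 3 whose YSGr libraries all lay below all SG libraries, against 2.96% of all genes tested. The count was 8 without SG male 2 alone, namely every gene except Lamb1 and Hspg2, against 5.1% of all genes. SG male 2 had the lowest SG value of each of the 10 genes, so its removal favours them over all genes. Exons of Lama2, Lamc3 and Nid1 share 631, 382 and 143 bases with the antisense genes Gm48084, Gm13441 and Gm48682. Whether the counting used strand is not given here, so reads of these pairs could be mixed.

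The next question was whether the difference arose in each sex. In females 8 of the 10 genes fell and 0 rose, where 1.87% of all genes were called lower. The 8 were Lama2, Lama4, Lama5, Lamb2, Lamc1, Lamc3, Nid1 and Hspg2. The female call of Hspg2 (limma, adjusted p = 0.047) held in only 3 of the 12 leave-outs, with adjusted p up to 0.19. The median log2 fold change of the 10 was -1.30, beside 0.01 over all genes tested. For 9 of the 10, every one except Lamb1, all 3 YSGr females lay below all 3 SG females, against 13.9% of all genes. Lamc3 had the largest difference, -2.18 (SE 0.33, adjusted p = 0.0040), a 4.61-fold fall by mean CPM. Nid1 was at -1.76 (SE 0.25, adjusted p = 0.0028), Lama2 at -1.60 (SE 0.29, adjusted p = 0.011) and Lama5 at -1.53 (SE 0.25, adjusted p = 0.0071). Lama1 had -0.96 (adjusted p = 0.089) and Lamb1 -0.58 (adjusted p = 0.39). The count of 8 dropped to 3 without SG female 5, to 3 without SG female 6 and to 5 without YSGr female 10. Calls over the whole table dropped in each of these fits too. In either direction, all genes called in females numbered 426 in the main fit and 94 without SG female 6.

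In males 2 of the 10 genes fell, Nid1 at -1.28 (SE 0.25, adjusted p = 0.015) and Lama5 at -0.96 (SE 0.25, adjusted p = 0.039), where 3.42% of all genes were called lower. All 10 values were negative, with a median of -0.60, beside -0.01 over all genes tested. For 4 genes, Lama4, Lama5, Lamc3 and Nid1, the 3 YSGr males lay below the 3 SG males, against 18% of all genes. That held for 8 genes without SG male 2, against 26% of all genes, and here too its removal favours the 10 genes. Hspg2 had -0.22 (adjusted p = 0.68, 95% interval -0.92 to 0.49) and Lamb2 -0.31 (adjusted p = 0.28, 95% interval -0.70 to 0.09). Without SG male 2 the count was 3 and the median -0.90, where 1.11% of all genes were called lower. Without YSGr male 8 the count was 0 and the median -0.55, where 0.85% of all genes were called lower. The count was 1 when any 1 of libraries 1, 3, 4, 5, 6, 7 and 10 was left out. Each of these fits also called fewer of all genes in males than the main fit. Without SG male 2 and YSGr male 8 the male count was 2 and the median -0.79, where 0.76% of all genes fell. The female count without both libraries was 9, where 5.08% of all genes fell.

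**Figure D2:**
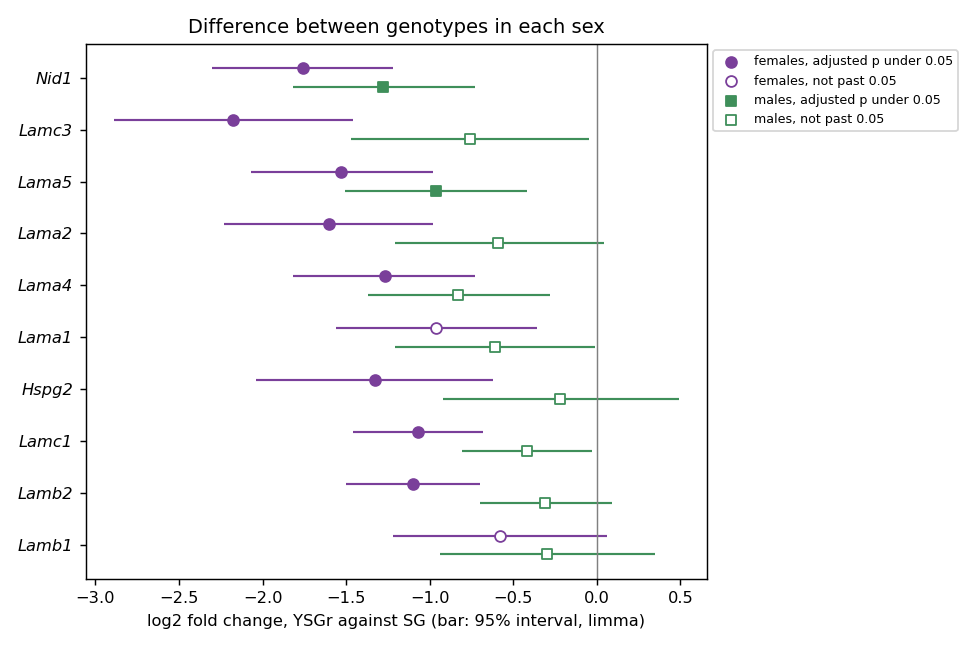
Log2 fold change of YSGr against SG (horizontal axis) for each gene in females (circles) and males (squares), with 95% intervals from limma and filled symbols for adjusted p under 0.05. Each female value lies to the left of the male value, and 8 female and 2 male symbols are filled.

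The female effect was the more negative for all 10 genes, but the difference between the sexes was itself past the threshold for 0 of them. This test called 0.00707% of all genes (1 gene). At an unadjusted p under 0.05 it had 5 of the 10, where 11.6% of all genes (1634) reached that level, and 3 of the 10 without SG male 2. The largest differences between the effects were -1.42 for Lamc3 (SE 0.47), -1.12 for Hspg2 (SE 0.46) and -1.02 for Lama2 (SE 0.41), each with adjusted p = 0.43. With library weights 3 genes passed, Lama2, Lamb2 and Lamc3, and so did 4.77% of all genes (675). Without YSGr female 11 it was 0 of the 10, and 119 of all genes. Without SG male 2 the median difference over the 10 genes shrank from -0.61 to -0.40. Yap1 itself had a log2 fold change of -4.32 in females and -2.96 in males, a difference of -1.36 (SE 0.40, limma, adjusted p = 0.43).

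Females against males within a genotype gave 0 calls of 10 in either genotype (limma), with 3 of 10 at an unadjusted p under 0.05 in SG and 2 of 10 in YSGr. Over all genes 1.83% reached that level in SG and 18.1% in YSGr, so the YSGr count was near the background. After adjustment this contrast called 0.0353% of all genes in SG and 0.0778% in YSGr. In SG all 10 genes had a higher female mean, by 0.07 (Lama1) to 0.78 (Lama5). These differences without SG male 2 were -0.25 to 0.60, 9 of them above 0. In YSGr 7 of the 10 had a lower female mean, Lamc3 by the most at -0.99 (SE 0.33, adjusted p = 0.17).

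Levels can be compared between genes once scaled by transcript length. In SG the median CPM per kb of the longest coding transcript was 17.0 for Nid1, 14.9 for Lama5, 10.5 for Lamc1, 7.10 for Lamb2 and 3.49 for Lamb1. Lama2 followed at 2.62, Lama4 at 2.33, Lama1 at 1.88, Hspg2 at 1.21 and Lamc3 at 1.19. Only the step from Lamb2 to Lamb1 separated neighbours with ranges that did not overlap over the 6 SG libraries. Within libraries Lama5 exceeded Lamc1, and Lamc1 exceeded Lamb2, in 6 of 6, while Lama2 exceeded Lama4 in 3 of 6.

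In YSGr the top of this order changed to Lamc1 at 6.19 CPM per kb, Nid1 at 5.44 and Lama5 at 5.15, followed by Lamb2 at 4.44. Lamc1 exceeded Nid1 in 5 of 6 YSGr libraries, whereas in SG its median was below that of Nid1. The medians of the lower ranks were in the same order as in SG, and there only Lamb1 and Lama2 had ranges that did not overlap. Within libraries Hspg2 exceeded Lamc3 in 5 of 6 in YSGr but in 1 of 6 in SG. Summed over the 4 alpha chains the level was 11.8 to 27.8 CPM per kb in SG and 6.97 to 11.5 in YSGr, with no overlap. The 2 gamma chains summed to 6.85 to 16.4 in SG and 5.74 to 7.03 in YSGr, which overlapped.

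**Figure D3:**
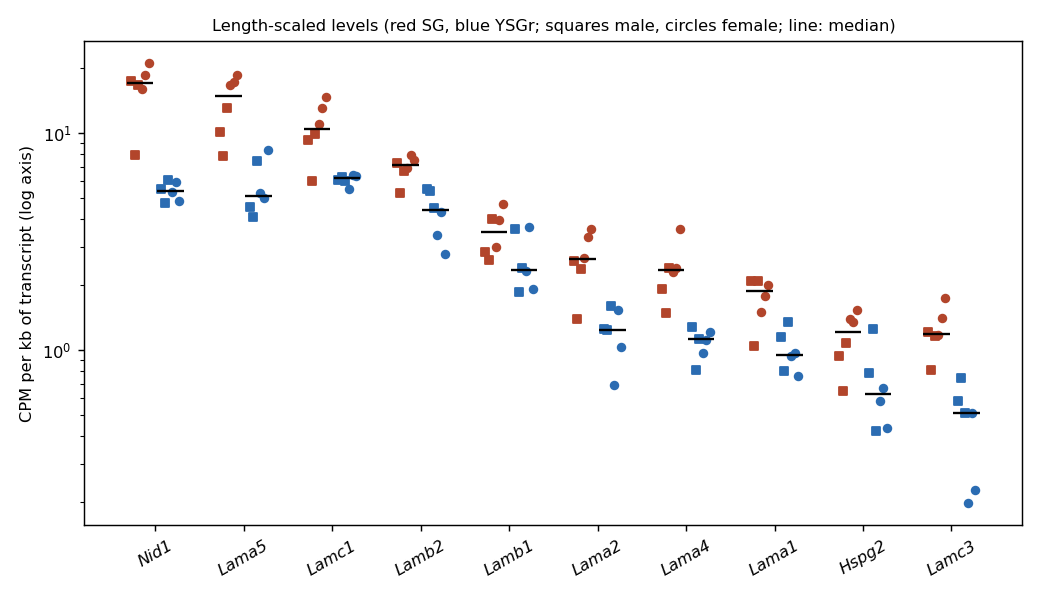
CPM per kb of transcript (vertical log axis) for the 10 genes in the order of their SG medians, with a point per library, red for SG, blue for YSGr, and lines at medians. Nid1 and Lama5 lead in SG at 17.0 and 14.9, and Lamc1 leads in YSGr at 6.19.

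Chains of the same type were then compared within each library, a ratio that scaling between libraries cannot move. There were 4 such ratios, each tested by an exact two-sided permutation of genotype within sex (400 arrangements, smallest possible p 0.005) and adjusted over the 4. The gamma chain ratio, Lamc1 minus Lamc3 in log2 CPM, was 3.28, 3.21 and 3.43 in SG males and 3.57, 3.55 and 3.43 in SG females. It was 3.68, 3.40 and 3.84 in YSGr males and 4.96, 3.92 and 4.98 in YSGr females. Lamc1 thus gained on Lamc3 by 0.72 (exact p = 0.01, adjusted p = 0.04), by 1.10 in females and 0.34 in males. On the log2(CPM + 1) scale, which shrinks low genes, the gain was 0.43 (exact permutation, adjusted p = 0.04). YSGr male 8 alone lay within the SG range. The call was lost without SG male 1, SG male 2 or YSGr male 9 (adjusted p = 0.06 each, exact permutation) and without SG female 4, 5 or 6 (0.14 each).

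The other 3 ratios were not past the threshold. Lama4 minus Lama5 averaged -3.45 ± 0.24 in SG and -3.26 ± 0.36 in YSGr (± SD, n = 6 per genotype), a difference of 0.19 (exact p = 0.28, adjusted p = 0.28). Lama1 minus Lama2 differed by 0.31 (exact p = 0.14, adjusted p = 0.27) and passed without YSGr male 8 (0.38, exact permutation, adjusted p = 0.03). Lamb1 minus Lamb2 differed by 0.26 (exact p = 0.2, adjusted p = 0.27). In both of these ratios the 3 YSGr females lay above the 3 SG females, while the males overlapped. As shares of summed CPM per kb, Lama5 made up a median of 66.7% of the alpha chains in SG and 62.0% in YSGr, and Lamc3 10.5% and 7.63% of the gamma chains.

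**Figure D4:**
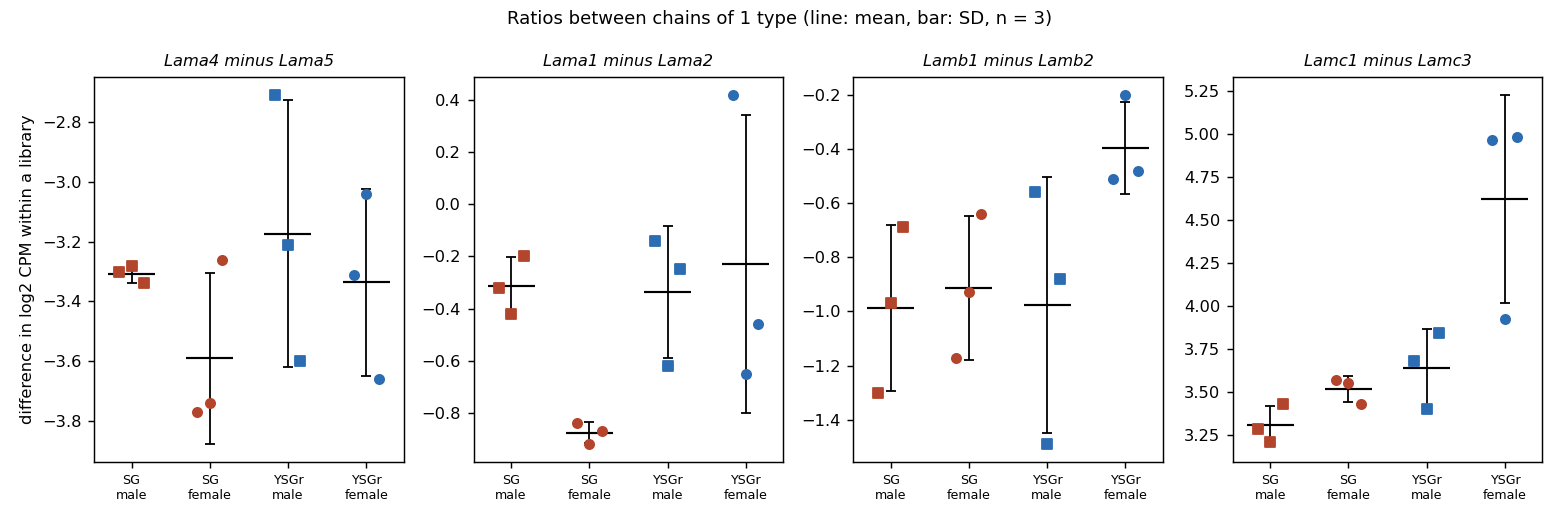
Difference in log2 CPM between 2 chains of the same type (vertical axes) within each library, by genotype and sex, with lines for means and bars for the SD of 3 libraries. For Lamc1 minus Lamc3 the YSGr females at 4.96, 3.92 and 4.98 lie above all SG points, and in the other panels the 6 SG and 6 YSGr points overlap.

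Within groups the genes also varied together in part. After the mean of each genotype and sex group was removed, Pearson r over the 12 libraries was above 0 in 39 of 45 pairs, with a median of 0.53, highest for Lama1 with Nid1 (0.95) and Lamc1 with Nid1 (0.87). Without SG male 2 the median was 0.36, with 0.93 for the first of these pairs and 0.47 for the second. Lama5 stood at -0.48 with Hspg2 and -0.38 with Lamb2, and at -0.80 with each without SG male 2. Outside the set, among 12845 genes, the pattern most like Nid1 was that of Mtmr9 (0.990), Abhd2 (0.981) and Dag1 (0.977). Dag1 encodes dystroglycan, a laminin receptor, and was at 0.90 without SG male 2. Lama1 was closest to Arhgap31 (0.986), Lama4 to Adamts12 (0.934), Lamb2 to Bhlhe40 (0.979) and Lamc3 to Itih5 (0.963). These are descriptions over libraries that share depth and tissue make-up, picked as the highest of many. No matching values over all gene pairs are given, so the 39 of 45 pairs and their median are not shown to be particular to this set.

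Other structural genes of the basement membrane were counted as a list. The background for this list and those after it was 5.27% of all genes tested fallen and 6.16% risen. Of the 25 structural genes tested, 11 fell and 1 rose, with a median of -0.56. The type IV collagen genes Col4a1 and Col4a2 had log2 fold changes of -1.72 (SE 0.11, adjusted p = 1.9e-06) and -1.47 (SE 0.11, adjusted p = 1.5e-05). Nid2, the second nidogen gene, had -1.48 (SE 0.16, adjusted p = 0.00016), close in size to Nid1, with SG libraries at 3.29 to 3.96 log2 CPM and YSGr libraries at 1.84 to 2.46. Fbln2, which encodes the matrix protein fibulin-2, had -1.48 (SE 0.14, adjusted p = 6.3e-05). Tgfbi, a secreted adhesion protein induced by TGF-beta, rose by 1.72 (SE 0.21, adjusted p = 0.00042). Without SG male 2 and YSGr male 8 the counts were 15 fallen and 1 risen, where 6.98% of all genes fell. Of the other laminin and laminin-like genes 3 of 8 fell and 0 rose, led by Lama3 at -1.0 (SE 0.23, adjusted p = 0.015). Lama3 was at -1.76 in females and -0.23 in males (limma, adjusted p = 0.013 and 0.65, and 0.43 for the difference).

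Partners at the cell surface made up further lists. Among 16 laminin receptor genes tested 2 fell, Gpc1 at -0.55 (SE 0.08, adjusted p = 0.0014) and the shared integrin subunit gene Itgb1 at -0.45 (SE 0.10, adjusted p = 0.013). The syndecan gene Sdc4 rose by 1.05 (SE 0.23, adjusted p = 0.013), and the median of the list was -0.15. The receptor genes that fell numbered 4 without SG male 2 and YSGr male 8, where 6.98% of all genes fell. Dag1 was at -0.24 (adjusted p = 0.25). In the dystrophin and integrin adhesion complexes 1 of 22 genes fell, Parvb at -0.70 (adjusted p = 0.039), and 0 rose. That count was 3 fallen without SG male 2, where 6.58% of all genes fell. It was 5 without both libraries, where 6.98% of all genes fell. Parvb was at -1.29 in females and -0.11 in males (limma, adjusted p = 0.027 and 0.81, and 0.43 for the difference). Of the genes that glycosylate dystroglycan 0 of 17 were called. Of the enzymes that make or process matrix 1 of 22 fell, the collagen chaperone gene Serpinh1 at -0.63 (adjusted p = 0.037), a call lost without YSGr male 8. Both counts of 1 of 22 were near the 5.27% of all genes called lower.

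Turnover enzymes moved in both directions, with 7 of 17 risen and 3 fallen and a median of 0.38. Mmp3, a metalloproteinase, averaged -1.50 log2 CPM in SG, close to the lowest value of the table, and 1.92 in YSGr, and its difference of 3.42 (SE 0.43, adjusted p = 0.00043) therefore depends on the prior count. Mmp9, a gelatinase abundant in neutrophils, rose from a similarly low SG mean of -0.50 by 2.64 (SE 0.38, adjusted p = 0.0010). Sulf1, which trims heparan sulfate, rose by 1.43 (SE 0.24, adjusted p = 0.0028). Sulf2 fell, with a log2 fold change of -0.39 (SE 0.10, limma, adjusted p = 0.027). Sulf2 was the more abundant, with means of 6.62 log2 CPM in SG and 6.22 in YSGr against 2.68 and 4.11 for Sulf1. The membrane-bound metalloproteinase genes Mmp15 and Mmp14 fell by 1.17 and 0.94 on the log2 scale (SE 0.12 and 0.15, adjusted p = 0.0001 and 0.0018).

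**Figure D5:**
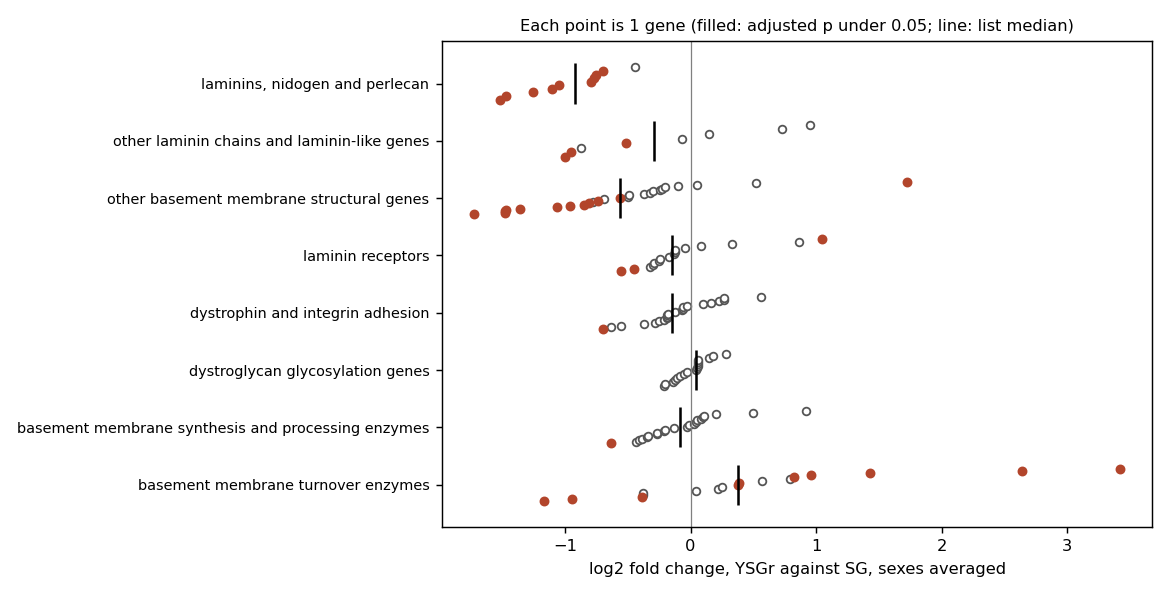
Log2 fold change of YSGr against SG averaged over the sexes (horizontal axis) for every tested gene of the set and of 7 further lists, filled where adjusted p is under 0.05, with a line at each list's median. The basement membrane set has 9 filled points, all below 0, while the turnover enzymes spread to both sides with 7 filled points above 0.

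Markers of cell types that border basement membranes were counted beside these genes. The background was again 5.27% of all genes tested fallen and 6.16% risen. All genes fallen made up 6.58% without SG male 2 and 4.69% without YSGr male 8. Of 14 endothelial markers 6 fell and 1 rose (median -0.54), among them Kdr, a VEGF receptor gene, at -1.55 (SE 0.22, adjusted p = 0.00083), while Vwf rose by 0.58 (adjusted p = 0.019). By sex Vwf was at -0.09 in females and 1.24 in males (limma, adjusted p = 0.91 and 0.0061, and 0.43 for the difference). The summed level of the 14 markers was 152 to 228 CPM in SG and 108 to 188 CPM in YSGr, which overlapped. Of 11 pericyte and mural markers 4 fell and 0 rose (median -0.42), with Pdgfrb at -1.09 (SE 0.18, adjusted p = 0.0025), and the summed level was 190.0 to 246 against 125 to 220.2 CPM. Pdgfrb was at -1.64 in females and -0.54 in males (limma, adjusted p = 0.0057 and 0.18, and 0.43 for the difference). Of 14 fibroblast and meningeal markers 3 fell and 1 rose (median -0.25), 5 fell without YSGr male 8, and their summed level was 1814 to 2401 against 2224 to 2669 CPM. Of 11 astrocyte markers 1 fell and 1 rose, at 3832 to 4996 against 2935 to 6001 CPM, and 2 fell and 2 rose without SG male 2. The 10 basement membrane genes together summed to 275 to 628 CPM in SG and 199 to 251 CPM in YSGr, with no overlap. No marker of these 4 lists sat at the floor of the table in every library. Of 11 granule neuron progenitor markers 5 fell and 0 rose, and of 10 markers of differentiating granule neurons 0 fell and 3 rose. Of 12 microglia and macrophage markers 4 rose and 0 fell, with a summed level of 701 to 1009 against 1014 to 1505 CPM. Without SG male 2, 7 of them rose and 1 fell. Of 10 oligodendrocyte lineage markers 3 fell and 0 rose (median 0.13). Their summed level was 1823 to 2864 CPM in SG and spread from 1178 to 9719 CPM in YSGr. Cspg4 is on both the oligodendrocyte and the pericyte list and is counted as fallen in each. Of 8 choroid plexus and ependyma markers 1 fell and 0 rose (median 0.0), and the list summed to 200 to 403 against 123 to 915 CPM. Of 6 Schwann cell markers 1 fell and 1 rose. Of the 2 muscle and skin markers tested 1 fell, a call lost without SG male 2 or YSGr male 8. The part of all these markers in the fall of the laminin, nidogen and perlecan genes was not tested.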

How the data were processed

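Bulk RNA-seq libraries were analysed from the table the authors deposited, which holds log2 CPM (counts scaled to sequencing depth, with a prior count) for 1 column per library. Per the submitters' processing notes, Trimmomatic 0.33, RSEM 1.2.12, Bowtie2, Picard 1.95, edgeR 3.30.3 and the mm10 build were named. Annotation, strand setting and low-count filter were not given in the sources used here. Estimated reads came from the equal steps of the values turned back to CPM, 92.1 to 93.1% of them whole within 0.02 reads, too few for a count test.

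Genes were kept where 3 or more of the 12 libraries exceeded a log2 CPM of 0, and were tested with limma 3.58.1 (R 4.3.3), checked first on simulated data. One coefficient was fitted per genotype and sex group, with a mean-variance trend, two-sided tests and Benjamini-Hochberg adjustment. Groups followed the titles and sex labels. Positions and lengths are from GENCODE M21 (mm10), promoters from RefSeq. All 10 genes were named, and from each other list up to 3 called genes per direction, plus Yap1, Col4a1 and Col4a2. The genes and lists were chosen with earlier results of these data known. Marker lists for granule neuron progenitors and neurons, astrocytes, endothelium, pericytes, fibroblasts and meninges, oligodendrocytes, microglia, choroid plexus, Schwann cells, muscle and skin were also counted. Female against male contrasts and the joint removal of SG male 2 and YSGr male 8, and overlap counts without SG male 2, were added after seeing the data.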

Additional observations from a re-analysis of the deposited data

Results flagged for a closer look

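Nid1 in SG male 2, at 5.59 log2 CPM, lay apart from the other 5 SG libraries, which were at 6.60 to 7.00, by more than the 95% limit of Dixon's gap test for 6 values. It was the only such value among 20 sets of 6 libraries (10 genes in 2 genotypes), and chance flags about 1 in 20 sets.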

How the results depend on the processing

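The averaged count of 9 genes was 8 with no filter, 8 with eBayes without a trend, 10 with library weights (adding Lamb1), 7 to 9 over the leave-outs and 9 under the other settings tried. Leave-outs gave 3 to 9 genes in females, 0 to 3 in males and 0 to 0 for the difference between the sexes. In males the count was 1 with no filter, 1 with eBayes without a trend, 8 with library weights and 0 in a fit of the 6 male libraries alone. The difference between the sexes had 3 genes with library weights. Hspg2 in males was -0.58 to 0.18 over the leave-outs, and was above 0 only without YSGr male 9 (limma, adjusted p = 0.68). Leave-outs moved the ratio Lamc1 minus Lamc3 between 0.63 and 0.89 (0.43 on the log2(CPM + 1) scale) and Lama1 minus Lama2 between 0.15 and 0.42, and neither changed sign. All genes called numbered 1617 in the average, 426 in females, 1111 in males and 1 for the difference. With library weights these were 4986, 4483, 2326 and 675, and leave-outs gave 900 to 2088, 94 to 785, 286 to 1662 and 1 to 119 (the last without YSGr female 11). The cause was not tested. Depth limits Lamc3 most, with 11 to 93 estimated reads. No paired analysis was possible because the groups compared share no replicate numbers.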
